A study of Mus musculus with 16 samples.

Results

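Genes of the germ line, 8 in all, were followed across 16 mouse B cell samples: Mnd1, Psmc3ip, Dmc1, Hormad1, Sycp3, Spo11 and Rec8, which act in meiotic recombination or on meiotic chromosomes, and Tdrkh, which acts in the piRNA pathway. They are 8 of the 14860 genes that the arrays measured under a single gene symbol. Each was read from its brightest transcript cluster, the exon array's unit for a gene, and each had only 1. They were chosen because their levels in these arrays were already known to differ in pattern. Their differences between lymphoma and normal cells, and between genotypes among the lymphomas, are therefore given as descriptions. Counts of members called in these comparisons are not read as tests.

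The series compares Myc-induced B lymphomas with normal B cells in mice that lack p53 or carry a mutant p53 allele, on 1 Affymetrix exon array per sample. The groups are 6 p53(246/-) lymphomas (here p53-246), 6 p53(-/-) lymphomas (p53-null), 2 p53-246 normal B cell samples and 2 p53-null normal B cell samples. The allele named 246 is not described further in the labels, and all samples, normal and lymphoma alike, carried at least 1 null p53 allele. Lymphoma cells came from lymph nodes and normal B cells from spleen of the same C57BL6/129 hybrid background, all after magnetic immuno-depletion of other cells, and tissue and cell state therefore cannot be told apart. The labels do not say which Myc construct started the tumors or whether samples of a group came from separate animals, so p-values measure only the spread between these samples.

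Meiosis begins with deliberate double-strand breaks made by Spo11 in complex with partner proteins, on chromosome axes built of Rec8 cohesin, Sycp3 and Hormad1. The recombinase Dmc1 then pairs each broken end with the homologous chromosome, and the Mnd1 and Psmc3ip (Hop2) heterodimer helps it to invade. The piRNA pathway loads small RNAs on Piwi proteins to silence transposons in the germ line, where Tdrkh anchors Piwi proteins at mitochondria for piRNA trimming. Most of these genes are silent in somatic cells.

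The promoters of 4 members are printed because 2 of these genes (Mnd1 and Psmc3ip) were higher in all 12 lymphomas than in any normal sample, and the other 2 (Hormad1 and Tdrkh) differed most from one lymphoma to another. Each runs from 250 bases before to 50 bases after the gene's start in RefSeq on GRCm38.p6, on the gene's own strand: chr3:84155737-84156036 on the minus strand for Mnd1, chr11:101095386-101095685 on the minus strand for Psmc3ip, chr3:95559427-95559726 on the plus strand for Hormad1 and chr3:94412994-94413293 on the plus strand for Tdrkh. Capitals mark matches to the Myc E-box CACGTG, which is its own reverse complement, or to the E2F core TCCCGC or its reverse complement GCGGGA; the motifs were searched on both strands and no matches overlap.
Mnd1: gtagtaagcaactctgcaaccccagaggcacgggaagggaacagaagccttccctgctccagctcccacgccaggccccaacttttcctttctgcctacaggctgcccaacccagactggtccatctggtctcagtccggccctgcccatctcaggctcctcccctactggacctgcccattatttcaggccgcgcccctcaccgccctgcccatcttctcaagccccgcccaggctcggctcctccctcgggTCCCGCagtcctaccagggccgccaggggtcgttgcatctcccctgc
Psmc3ip: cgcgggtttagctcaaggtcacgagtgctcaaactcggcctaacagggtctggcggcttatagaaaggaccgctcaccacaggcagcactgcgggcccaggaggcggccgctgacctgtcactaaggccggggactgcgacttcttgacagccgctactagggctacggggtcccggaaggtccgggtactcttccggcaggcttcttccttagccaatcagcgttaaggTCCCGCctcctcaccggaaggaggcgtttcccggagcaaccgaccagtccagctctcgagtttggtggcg
Hormad1: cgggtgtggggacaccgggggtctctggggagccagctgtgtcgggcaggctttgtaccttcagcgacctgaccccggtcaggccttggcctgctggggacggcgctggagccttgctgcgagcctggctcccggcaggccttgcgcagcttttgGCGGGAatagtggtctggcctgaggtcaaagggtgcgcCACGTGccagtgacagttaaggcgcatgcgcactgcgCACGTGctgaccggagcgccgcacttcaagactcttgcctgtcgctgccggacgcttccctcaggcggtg
Tdrkh: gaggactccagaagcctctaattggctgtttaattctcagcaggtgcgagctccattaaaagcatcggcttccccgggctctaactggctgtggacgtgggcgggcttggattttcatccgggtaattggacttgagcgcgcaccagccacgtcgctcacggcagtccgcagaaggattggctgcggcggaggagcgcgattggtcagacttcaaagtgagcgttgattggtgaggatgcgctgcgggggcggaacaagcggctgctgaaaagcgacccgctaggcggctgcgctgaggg

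Promoter entries were matched for 7 of the 8 members. An E-box stood in 2 of the 7: Hormad1 has matches beginning at -57 and -20, and Sycp3 at -64 and -43, counting the base before the gene's start as -1. Of 27025 promoters of this length, 7.24% hold the E-box. An E2F core stood in 6 of the 7, all but Tdrkh, against 20.1% of all promoters; in Mnd1 it begins at position 4 after the start and in Psmc3ip at -20. Dmc1, which was below background on every array, has 2 such matches, at -240 and -13, so members with the core include both raised and undetected genes. Tdrkh has 25 CpG dinucleotides, Psmc3ip 24, Hormad1 24, Dmc1 18, Rec8 18, Sycp3 15 and Mnd1 12, where the median promoter has 7. A letter match describes these windows and is no evidence that a factor binds there.

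All levels are log2 intensities as the authors deposited them, and levels of different genes are not set against each other because probes differ in brightness. On each array a background cutoff was set at the 95th percentile of 801 olfactory and vomeronasal receptor genes, which B cells should not use. The cutoffs lay between 4.93 and 5.89 over the 16 arrays, at 4.93 to 5.79 in lymphomas and 5.36 to 5.89 in normal samples. On 2 arrays, p53-246 lymphoma 6 and p53-null normal sample 1, gene values were compressed: their SD over genes was 1.56 and 1.57, against 1.69 to 1.94 on the other 14, and their cutoffs were the highest. Results that lean on these 2 arrays are also given without them. Pairs of lymphomas correlated at 0.912 to 0.982 over all 23332 transcript clusters. Pairs of normal samples correlated at 0.907 to 0.978 and lymphoma-normal pairs at 0.793 to 0.910.

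Markers of B cells and of other blood cells were read on the same arrays. Of 10 measured B cell markers, 9 were lower in lymphomas than in normal cells. Among them were the complement receptor Cr2 (log2 difference -6.49, SE 0.16) and the IgE receptor Fcer2a (-6.13, SE 0.13). The Cr2 mean in lymphomas, 4.57, was below the lowest lymphoma cutoff, so the true size of its difference is not known. Ms4a1, which encodes CD20, averaged 9.19 in lymphomas and 11.78 in normal samples, so a B cell signal remained. Of 12 neutrophil markers, 6 were higher in lymphomas and none lower, and their list mean was 5.96 to 6.79 in lymphomas against 4.68 to 5.96 in normal samples. Of 10 macrophage and dendritic markers 5 were lower, of 8 natural killer cell markers 6 were lower, of 6 platelet and erythroid markers 4 were lower, of 10 T cell markers 1 was lower, and of 7 plasma cell markers 2 were higher and 2 lower. The part of these other cells in the members' values was not tested. In RNA of whole samples, fewer cells of a type and less RNA per cell cannot be told apart.

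**Figure D1:**
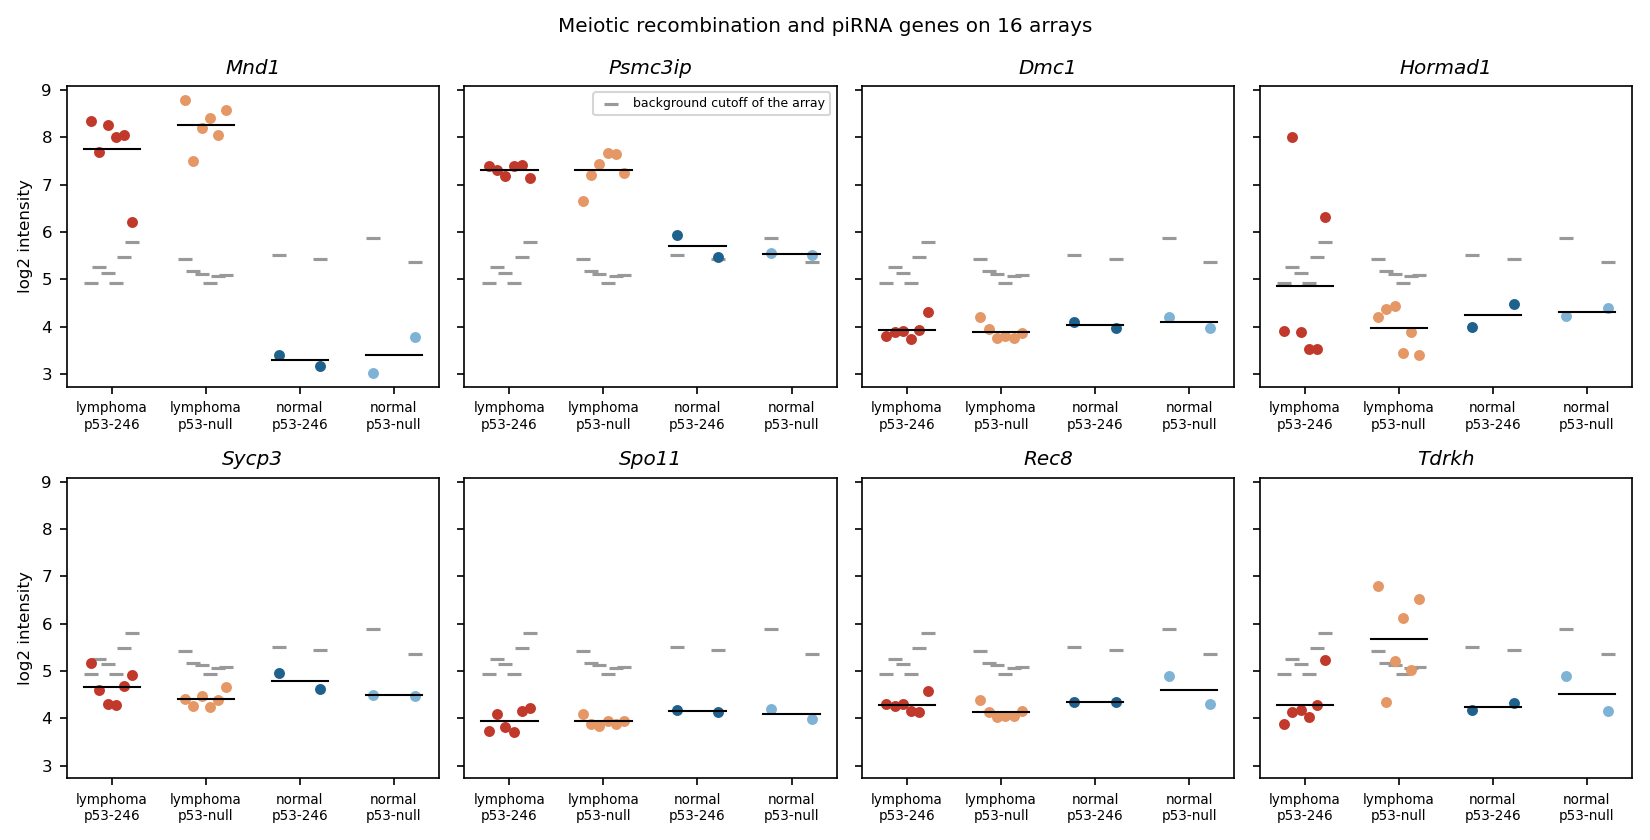
Log2 intensity of each of the 8 genes on all 16 arrays. Points are arrays, black lines are group means and grey dashes mark each array's background cutoff, and the groups from left to right are p53-246 lymphomas (n = 6), p53-null lymphomas (n = 6), p53-246 normal samples (n = 2) and p53-null normal samples (n = 2). Mnd1 and Psmc3ip separate all lymphomas from all normal samples, Hormad1 stands up in 2 p53-246 lymphomas and Tdrkh in 4 p53-null lymphomas, and Dmc1, Spo11 and Rec8 stay under the dashes.

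Between the 12 lymphomas and the 4 normal samples, 2 of the 8 genes were called higher and 0 lower in the limma fit over all genes (adjusted p under 0.05), the same 2 that did not overlap between lymphoma and normal arrays. Of all 14860 genes, 20.4% were called higher and 17.8% lower, 38.3% in either direction, and 13.5% lay higher on every lymphoma array than on any normal array and 8.74% lower (22.3% without overlap in either direction). Because the members were chosen on these values, nothing is read from the comparison of the counts. In detection, 1 member (Mnd1) was above background in all 12 lymphomas and in no normal sample, a pattern held by 1.39% of all genes. Another 3 (Hormad1, Sycp3 and Tdrkh) were above background in some lymphomas and in no normal sample, as were 10.5% of all genes. The 3 genes Dmc1, Spo11 and Rec8 were below background on all 16 arrays, as were 40.7% of all genes, and Psmc3ip was detected in all lymphomas and in 3 of 4 normal samples.

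Mnd1, a subunit of the strand-invasion accessory heterodimer, was well detected in lymphomas and undetected in normal B cells. Its lowest, median and highest levels were 6.22, 8.03 and 8.35 in p53-246 lymphomas and 7.51, 8.31 and 8.80 in p53-null lymphomas, against 3.41 and 3.17 in p53-246 normal samples and 3.02 and 3.78 in p53-null normal samples. All lymphoma values lay above all normal values by more than 2 log2 units. The mean was 7.76 ± 0.79 in p53-246 lymphomas, 8.26 ± 0.45 in p53-null lymphomas (SD, n = 6 each), 3.29 ± 0.17 in p53-246 normal samples and 3.40 ± 0.54 in p53-null normal samples (SD, n = 2 each).

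The measured log2 difference of Mnd1 between lymphoma and normal cells, averaged over genotypes, was 4.67 (SE 0.31), a 25.4-fold difference of the measured means. Within p53-246 samples it was 4.47 (SE 0.43) and within p53-null samples 4.86 (SE 0.43), so it was present in both genotypes. Since every normal array was below its cutoff, the true normal level is not known. Setting the 4 normal arrays at their cutoffs gives a rise of at least 5.51-fold.

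The lowest Mnd1 lymphoma, p53-246 lymphoma 6 at 6.22, is one of the 2 compressed arrays and was still 0.43 above its own cutoff. The other 11 lymphomas exceeded theirs by 2.34 to 3.48. An annotated pseudogene, Mnd1-ps on chromosome 14, shares the gene's name, and whether its transcripts reach the Mnd1 probes was not tested.

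Psmc3ip, the partner of Mnd1 in the heterodimer, was near the background cutoff in normal cells and was higher in lymphomas. Its lowest, median and highest levels were 7.14, 7.36 and 7.43 in p53-246 lymphomas and 6.67, 7.35 and 7.68 in p53-null lymphomas, against 5.95 and 5.47 in p53-246 normal samples and 5.55 and 5.51 in p53-null normal samples. The lymphoma and normal groups did not overlap, and the gap between the lowest lymphoma and the highest normal sample was wider than the range of the normal samples. The normal samples lay at 0.43 and 0.03 (p53-246) and at -0.33 and 0.15 (p53-null) relative to their cutoffs, so detection in normal cells rests on the cutoff: 4, 3 and 0 of 4 were above the 90th, 95th and 99th percentile of receptor genes. The log2 difference was 1.69 (SE 0.15, 3.23-fold) over both genotypes, 1.61 (SE 0.21) in p53-246 and 1.78 (SE 0.21) in p53-null samples.

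The levels of the 2 subunits across lymphomas showed no stable relation. Over the 12 lymphomas the Pearson correlation of Mnd1 with Psmc3ip was 0.01, but it was 0.50 without p53-null lymphoma 1 and -0.32 without p53-246 lymphoma 6 (n = 11 each, chosen after seeing the data). The lowest Psmc3ip lymphoma, p53-null lymphoma 1 at 6.67, had the highest Mnd1 level, 8.80, and p53-null lymphoma 4 was high in both, at 8.41 for Mnd1 and 7.68 for Psmc3ip. Mnd1 had an SD of 0.67 over the lymphomas, the 98.1st percentile of all genes, while Psmc3ip had an SD of 0.26, close to the median gene's 0.23. The Psmc3ip gene overlaps Mlx in the annotation, and the arrays' probes were not checked for shared sequence.

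Dmc1, the meiosis-specific recombinase that the heterodimer assists, was not detected on any array. Its lowest, median and highest levels were 3.75, 3.90 and 4.32 in p53-246 lymphomas and 3.77, 3.85 and 4.21 in p53-null lymphomas, against 4.11 and 3.99 in p53-246 normal samples and 4.22 and 3.98 in p53-null normal samples. The groups overlapped and the log2 difference of lymphoma from normal cells was -0.16 (SE 0.11). Of the strand-exchange machinery, the 2 accessory subunits were thus above background in lymphomas and their meiotic recombinase was not.

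Spo11, the catalytic subunit that makes meiotic breaks, was likewise undetected on all arrays. It spanned 3.72 to 4.22 (median 3.95) in p53-246 lymphomas and 3.85 to 4.09 (median 3.91) in p53-null lymphomas, against 4.17 and 4.14 in p53-246 normal samples and 4.20 and 3.99 in p53-null normal samples. The log2 difference was -0.18 (SE 0.10), and the groups overlapped.

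Rec8, the meiotic kleisin that replaces Rad21 in cohesin, spanned 4.14 to 4.58 (median 4.28) in p53-246 lymphomas and 4.02 to 4.39 (median 4.09) in p53-null lymphomas, against 4.35 and 4.35 in p53-246 normal samples and 4.90 and 4.30 in p53-null normal samples. None of these values reached its array's cutoff. The log2 difference was -0.27 (SE 0.11), and the highest value, 4.90, came from the compressed p53-null normal array. Its somatic counterpart Rad21 averaged 10.31 in lymphomas and 9.43 in normal samples, a log2 difference of 0.88 (SE 0.11, limma adjusted p = 6.78e-06).

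The small differences of the undetected genes between lymphomas varied with the background level of the arrays. Across the 12 lymphomas, the Pearson correlation with the median of the receptor genes was 0.86 for Dmc1, 0.86 for Spo11 and 0.67 for Rec8. Without p53-246 lymphoma 6 the same correlations over 11 arrays were 0.69, 0.87 and 0.24. Mnd1 had -0.69 with that array and -0.04 without it, so its relation rested on the compressed array. Dmc1 and Rec8 correlated at 0.84 with each other and Dmc1 and Spo11 at 0.74, and these points share the array and its background.

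**Figure D2:**
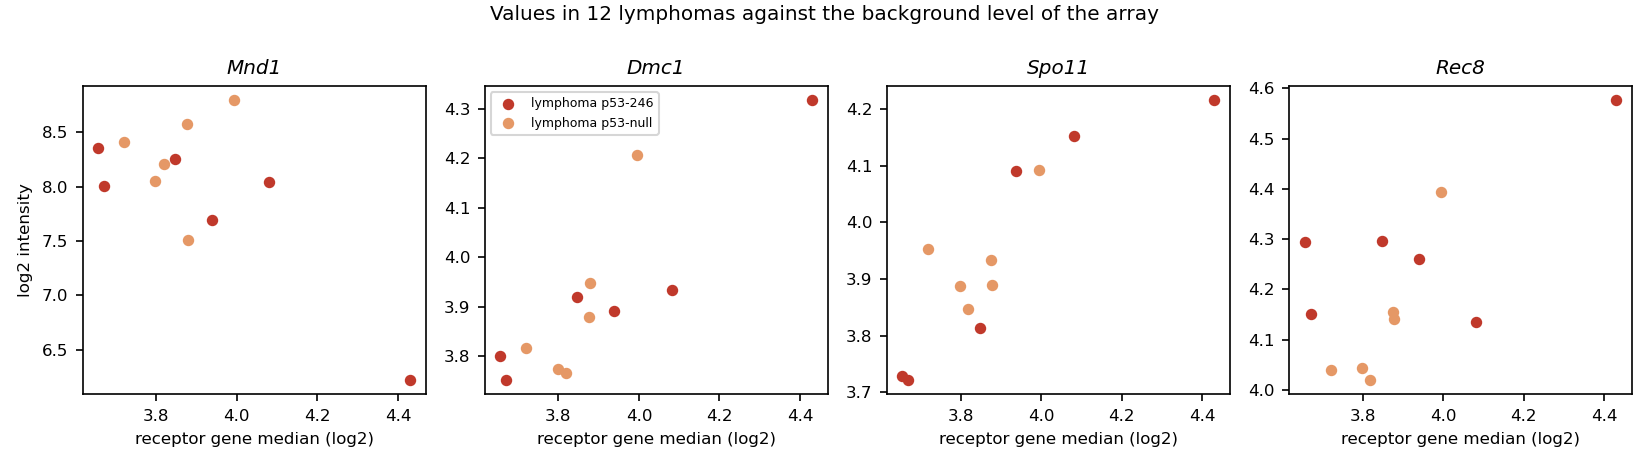
Log2 intensity of Mnd1, Dmc1, Spo11 and Rec8 in the 12 lymphomas (y axes, each with its own range) against the median log2 intensity of the receptor genes on the same array (x axes). Points are arrays, p53-246 lymphomas in red and p53-null lymphomas in orange. Dmc1 and Spo11 climb with the background median (correlations 0.86 and 0.86), and the isolated point at the right of each panel is p53-246 lymphoma 6.

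Hormad1, an axis protein that marks unsynapsed meiotic chromosomes and is known as a cancer-testis antigen in human tumors, was at background in most samples and high in a single lymphoma. The 6 p53-246 lymphomas had 3.91, 8.02, 3.90, 3.54, 3.53 and 6.31, with a mean of 4.87 ± 1.87 (SD, n = 6). The 6 p53-null lymphomas had 4.22, 4.38, 4.45, 3.46, 3.90 and 3.40, with a mean of 3.97 ± 0.46 (SD, n = 6). Normal samples had 4.00 and 4.48 (p53-246) and 4.22 and 4.40 (p53-null).

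Hormad1 was above background on 2 arrays, p53-246 lymphomas 2 and 6, by 2.76 and 0.52 log2 units, and lymphoma 6 is the compressed array. The log2 difference of lymphoma from normal cells was 0.14 (SE 0.61) and became -0.17 without p53-246 lymphoma 2. Its SD over the lymphomas, 1.38, was at the 99.9th percentile of all genes. The mean difference between genotypes in lymphomas was 0.90 (SE 0.61), which was 0.27 without p53-246 lymphoma 2, so most of it lay in that array.

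In p53-246 lymphoma 2 another synaptonemal complex gene, 4930447C04Rik (Six6os1), which encodes a central-element protein, was also detected. Its level was 6.66 in that lymphoma and 5.58 in p53-null lymphoma 6, while it was below background on the other 10 lymphoma arrays and at 3.92 to 4.52 in normal samples. Marker lists of other cells in p53-246 lymphoma 2 ranked 2 of 12 from the top for neutrophils (list mean 6.72) and natural killer cells (5.26). They ranked 4 of 12 for macrophages (5.44), 5 of 12 for T cells (4.76), 7 of 12 for plasma cells (6.17) and 11 of 12 for platelet and erythroid cells (4.50). The part of such cells in its Hormad1 level was not tested.

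Sycp3, the lateral-element protein of the synaptonemal complex, was at or near background throughout. It spanned 4.28 to 5.17 (median 4.64) in p53-246 lymphomas and 4.25 to 4.65 (median 4.40) in p53-null lymphomas, against 4.95 and 4.63 in p53-246 normal samples and 4.49 and 4.47 in p53-null normal samples. In lymphomas it exceeded the cutoff once, in p53-246 lymphoma 1 by 0.24, and that array had the lowest cutoff. The groups overlapped, and the log2 difference of lymphoma from normal cells was -0.11 (SE 0.14).

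Tdrkh, the tudor-domain anchor of the piRNA pathway, was above background in 0 of 6 p53-246 lymphomas, 4 of 6 p53-null lymphomas and 0 of 4 normal samples. The 6 p53-246 lymphomas had 3.89, 4.14, 4.18, 4.02, 4.28 and 5.23, with a mean of 4.29 ± 0.48 (SD, n = 6). The 6 p53-null lymphomas had 6.80, 4.35, 5.22, 6.13, 5.02 and 6.52, with a mean of 5.67 ± 0.96 (SD, n = 6). Lymphomas 1, 3, 4 and 6 of the p53-null group were above their cutoffs, by 1.37, 0.10, 1.19 and 1.43, while lymphoma 5 lay at -0.05 relative to its own and lymphoma 2 was at background.

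In normal samples Tdrkh had 4.17 and 4.32 (p53-246) and 4.89 and 4.16 (p53-null), all below background. The lymphoma-normal difference was 0.05 (SE 0.50) in p53-246 and 1.15 (SE 0.50) in p53-null samples. Between genotypes in lymphomas the log2 difference, p53-246 minus p53-null, was -1.38 (SE 0.35), a 2.60-fold difference of means. All p53-246 lymphomas and p53-null lymphomas 2 and 5 were below their cutoffs, so their true levels are not known. Leaving out 1 lymphoma at a time kept this difference between -1.64 and -1.15, and without both compressed arrays it was -1.57. The genotype groups still overlapped for Tdrkh, as p53-246 lymphoma 6 (5.23) lay above p53-null lymphomas 2, 3 and 5. That overlap rested on this compressed array, whose value was 0.56 below its own cutoff. The other p53-246 lymphomas reached at most 4.28, and the lowest p53-null lymphoma had 4.35.

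The neighbouring gene Oaz3, which overlaps Tdrkh in the annotation and is known from spermatids, was below background on all 16 arrays (3.83 to 4.69 in lymphomas, 4.20 to 5.21 in normal samples). It correlated with Tdrkh at 0.68 over the 12 lymphomas. Ranks of marker lists from the top of 12 differed between the Tdrkh-positive lymphomas. For T cell, macrophage, natural killer, neutrophil, plasma cell, and platelet and erythroid markers, p53-null lymphoma 6 ranked 1, 1, 1, 4, 2 and 3. In the same order p53-null lymphoma 3 ranked 7, 2, 4, 9, 8 and 7, and p53-null lymphoma 4 ranked 10, 8, 11, 1, 5 and 12. In contrast, p53-null lymphoma 1 ranked 12 of 12 for neutrophil, macrophage and natural killer markers. The latter lymphoma, with the highest Tdrkh level, 6.80, ranked 2 of 12 for platelet and erythroid markers. It ranked 8 of 12 for T cell markers and 11 of 12 for plasma cell markers. The part of other cells in the Tdrkh levels was not tested.

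**Figure D3:**
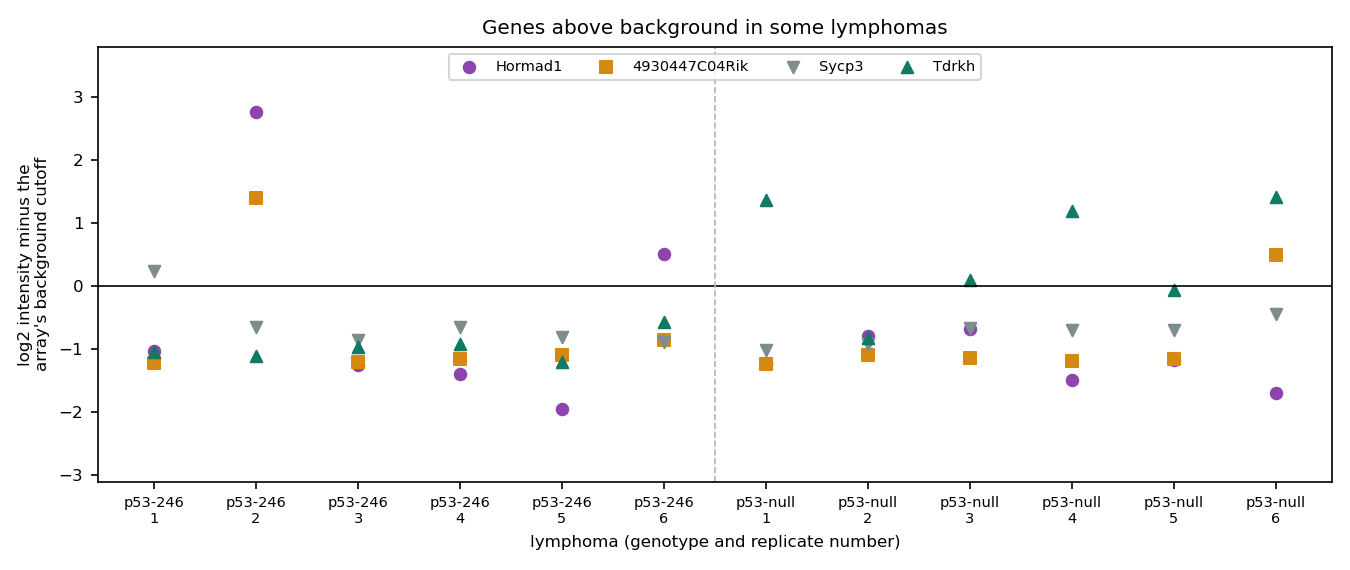
Log2 intensity minus the array's own background cutoff (y axis) for Hormad1, 4930447C04Rik (Six6os1), Sycp3 and Tdrkh in each of the 12 lymphomas (x axis, p53-246 at the left of the dashed line and p53-null at the right). Points above 0 count as detected. Hormad1 is detected in p53-246 lymphomas 2 and 6, Sycp3 in p53-246 lymphoma 1, and Tdrkh in p53-null lymphomas 1, 3, 4 and 6, with 4930447C04Rik in p53-246 lymphoma 2 and p53-null lymphoma 6.

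Among the lymphomas no member separated the genotypes completely, Tdrkh only because of p53-246 lymphoma 6, and 0 of 8 were called in the limma fit. Of all genes, 0.0% were called (445 had an unadjusted p under 0.05) and 0.0942% did not overlap between genotypes. For the members other than Tdrkh and Hormad1, p53-246 minus p53-null in lymphomas ran from -0.50 (Mnd1, SE 0.31) to 0.25 (Sycp3, SE 0.14). The Mnd1 value was -0.19 without p53-246 lymphoma 6. For Psmc3ip it was -0.00 (SE 0.15, 95% interval -0.32 to 0.31). These values and the count of called members describe the 12 arrays. They are not read as a test, because the members were chosen with earlier results in view.

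In normal B cells, the comparison of genotypes had not been used to choose the genes and was tested with limma over all genes. None of the 8 passed, at an adjusted p of 0.999 each, and 0.0% of all genes did (0 at an adjusted p under 0.05, 505 at an unadjusted p under 0.05). Unadjusted p-values ran from 0.223 (Rec8, log2 difference -0.25, SE 0.20) and 0.228 (Sycp3, 0.31, SE 0.25) to 0.953 (Hormad1, -0.06, SE 1.06). For the genes that varied most among lymphomas or between cell states the differences were also within their errors. In the same limma fit Mnd1 differed by -0.11 (SE 0.53, unadjusted p = 0.836), Psmc3ip by 0.17 (SE 0.26, unadjusted p = 0.514) and Tdrkh by -0.28 (SE 0.61, unadjusted p = 0.654). The spread of each gene was estimated from all arrays, most of them lymphomas, so these errors and p-values do not measure the normal samples alone. For Hormad1 the SD was 0.34 in p53-246 and 0.12 in p53-null normal samples, and 1.87 in p53-246 lymphomas. With 2 samples a group the 95% intervals were wide, from -1.23 to 1.01 for Mnd1 and from -1.57 to 1.02 for Tdrkh. These intervals do not show that the genotypes were alike.

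The other genes of the members' pathways moved in both directions. Over all lists of meiotic genes together, 4 of 29 other measured genes were higher in lymphomas and 4 lower in the limma fit, where 20.4% of all genes were higher and 17.8% lower, with a median log2 difference of -0.12 against -0.09 for all genes. Counting also spermatid, piRNA and other germ line genes, 42 of 57 were below background on all 16 arrays (40.7% of all genes were). None matched the Mnd1 pattern of detection in all 12 lymphomas only, and 4 (Mei4, Cntd1, 4930447C04Rik and Tnp2) were detected in some lymphomas only. For Cntd1 and Tnp2 this leaned on the higher cutoffs of normal arrays. Cntd1 averaged 4.96 in lymphomas and 5.17 in normal samples, and lymphomas with Tnp2 detected (4.97 to 5.40) overlapped normal samples (4.81 to 5.19).

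In double-strand break formation, Mei4, an axis protein needed for Spo11 to make breaks, was higher in lymphomas (6.42 against 4.80, log2 difference 1.62, SE 0.22, adjusted p = 8.84e-06), and detected in 11 of 12 lymphomas. Prdm9, the methyltransferase that directs break sites, was lower (-0.76, SE 0.20, adjusted p = 0.00647). In strand exchange 1 of 2 others was lower, Mcmdc2 (-0.79, SE 0.11, adjusted p = 1.38e-05), a helicase-like protein needed for meiotic repair. Each of these 2 was below background on every array, so the true levels are not known. Of 6 crossover genes 1 was higher, the mismatch-repair endonuclease subunit Mlh3 (0.68, SE 0.21, adjusted p = 0.0155), and leaving out 1 array gave 0 (without p53-246 normal sample 2) to 2 (without p53-246 lymphoma 1).

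In the synaptonemal complex, 1 of 4 others was higher, Syce2 (1.46, SE 0.18, adjusted p = 2.79e-06), a central-element protein, and 1 was lower, its partner Tex12 (-0.84, SE 0.14, adjusted p = 9.1e-05). In meiotic cohesin and telomere attachment, 1 of 5 others was higher, Sgo2a (2.97, SE 0.13, adjusted p = 9.21e-12), which protects centromeric cohesin. Terb1, which tethers meiotic telomeres to the nuclear envelope, was lower (-2.03, SE 0.12, adjusted p = 6.16e-10) and below background on every lymphoma array. Of 10 genes of meiotic entry and germ line regulation 0 passed, and 2 had an unadjusted p under 0.05. This count was 3 without p53-246 lymphoma 6, the compressed array, and 2 with array weights.

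Of 13 piRNA genes other than Tdrkh, none was higher and 1 was lower, Tdrd7 (-1.81, SE 0.13, adjusted p = 5.33e-09), a tudor-domain protein of germ granules. Without p53-246 lymphoma 6 the count of passing genes was 4, and without p53-null normal sample 2 it was 3. The median log2 difference was -0.14, and 12 of the 13 were below background on all arrays. Tdrkh was the single measured gene of this list detected in lymphomas.

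**Figure D4:**
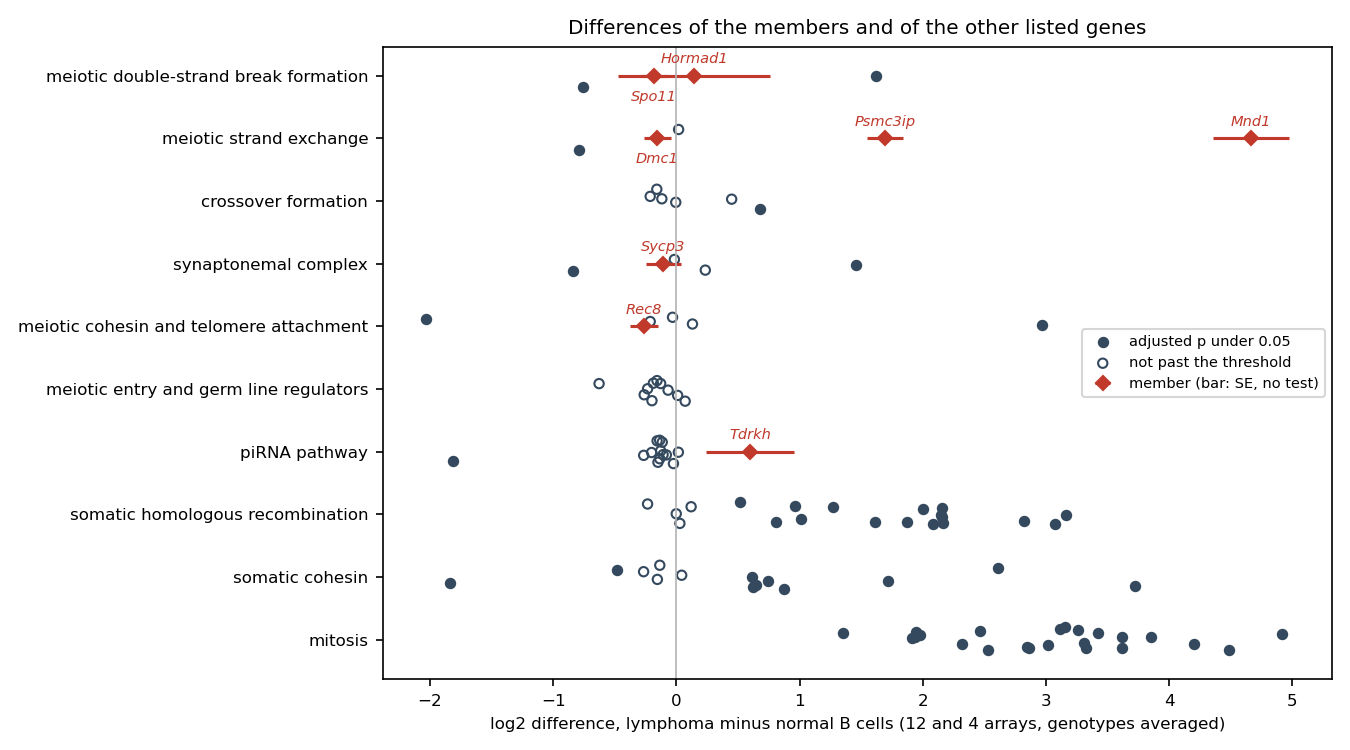
Log2 difference of lymphoma minus normal B cells, genotypes averaged (x axis), for the members (red diamonds with SE bars, not tested) and the other measured genes of each list (dots, filled where the limma adjusted p is under 0.05). Mnd1 at 4.67 and Psmc3ip at 1.69 lie apart from Dmc1 at -0.16 in the strand-exchange row, most other germ line genes lie near 0, and all 23 mitosis genes lie to the right.

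Somatic relatives of the members were mostly higher in lymphomas. Of 20 genes of somatic homologous recombination 16 were higher and 0 lower, with a median log2 difference of 1.74. The nuclease Exo1 was higher by 3.16 (SE 0.17) and the Rad54-family translocase Rad54b by 3.07 (SE 0.16). The AAA ATPase Fignl1 was higher by 2.82 (SE 0.13) and Brca1 by 2.17 (SE 0.15). Exo1 (4.58 to 4.81) and Rad54b (4.29 to 4.63) were below background in normal samples, so the true size of their differences is not known. Of 14 somatic cohesin genes 8 were higher and 2 lower (median 0.62), led by the acetyltransferase Esco2 at 3.72 (SE 0.14) and the centromere protector Sgo1 at 2.61 (SE 0.19), with Esco1 lower at -1.84 (SE 0.24). Mad2l1, a spindle checkpoint protein that shares the HORMA domain with Hormad1, averaged 10.09 in lymphomas and 8.16 in normal samples, a difference of 1.93 (SE 0.17, adjusted p = 5.52e-08).

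All 23 mitosis genes were higher in lymphomas (median 3.11), and their list mean was 8.62 to 9.09 in lymphomas against 5.72 to 5.99 in normal samples. The part of cell division in the levels of Mnd1 and Psmc3ip was not tested. Across the 12 lymphomas Psmc3ip correlated with the mitosis mean at 0.58 (0.60 over the 11 without p53-246 lymphoma 6). Mnd1 correlated at 0.53, and at -0.07 without that lymphoma, and Hormad1 at -0.69, and at -0.59 without it.

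The genes most like each member across the 12 lymphomas were taken from the 7055 genes whose lymphoma mean was above the cutoff, by Pearson correlation, as a description of arrays that share their background. For Mnd1 these were Ccdc66 at 0.96, Actl6a at 0.94 and Fam133b at 0.93, which were 0.84, 0.77 and 0.87 without p53-246 lymphoma 6. For Psmc3ip they were Pcid2 at 0.94, Rhno1 at 0.93 and Elovl5 at 0.93. None of these 6 had a lymphoma-normal difference near that of Mnd1, with the largest, Actl6a, at 1.29.

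For Hormad1 the closest genes were Pim2 at 0.91, Cd40 at 0.86 and Rgs16 at 0.85. Hormad1 was above background only in p53-246 lymphomas 2 and 6, and these correlations were not computed without lymphoma 2. Cd40, a B cell costimulatory receptor, spanned 4.82 to 6.38 in lymphomas against 7.79 to 8.01 in normal samples. Its 6.38 was in p53-246 lymphoma 2, and the next highest lymphoma had 5.36. For Tdrkh the closest genes were Cdkn2c at 0.87, Rad9b at 0.86 and Ap3m1 at 0.86. Cdkn2c, a cyclin-dependent kinase inhibitor, spanned 7.26 to 8.44 in lymphomas against 5.79 to 6.29 in normal samples. For the low genes the closest were Slc25a22 at 0.84, Plcb3 at 0.83 and Ocel1 at 0.80 for Sycp3, Col9a2 at 0.95, Espn at 0.95 and Sox1ot at 0.94 for Dmc1, Agpat1 at 0.93, H1f10 at 0.92 and Dusp9 at 0.92 for Spo11, and Hbegf at 0.96, Lrrc46 at 0.94 and Col10a1 at 0.90 for Rec8.

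The neighbours of a member did not all move with it. Their counts stand beside 20.4% higher and 17.8% lower among all genes, and nothing is read from them. Within 500 kb of Mnd1 there were 5 other tested genes, of which 1 was higher and 1 lower in lymphomas, and none correlated with Mnd1 above 0.30 across the lymphomas. Near Psmc3ip there were 39, with 7 higher and 9 lower, and the closest, Tubg1, correlated with it at 0.81. Near Hormad1 there were 33 (8 higher, 12 lower) and near Tdrkh 9 (2 higher, 0 lower), with highest correlations of 0.59 and 0.68. Near Dmc1, Sycp3, Spo11 and Rec8 there were 22, 12, 7 and 33 tested genes, and 5, 5, 2 and 5 of them were higher while 2, 3, 3 and 8 were lower. The highest correlations there were 0.83 for Dmc1 (Syngr1), 0.39 for Sycp3, 0.62 for Spo11 and 0.91 for Rec8 (Tgm1).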

How the data were processed

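Normal and lymphoma B cells were measured on 16 exon arrays, and the log2 intensities deposited by the authors were used as they stand. The log base is read from the values: natural logarithms would put the highest at 726214. Partek 6.5 and the mouse build mm8 are named per the submitters' processing notes without a role, and a mixed model ANOVA per the labels' design text; background treatment and normalization are not given in the sources used here. Of 23332 transcript clusters, 14996 carry 1 gene symbol, 1019 several and 7317 none, and the brightest cluster per gene left 14860 genes. IDs of 14941 clusters matched the RefSeq table of GRCm38.p6, the source of promoters and neighbours; its coordinates are not those of the files' build.

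A mean per group was fitted with limma 3.58.1 in R 4.3.3, two-sided, with Benjamini-Hochberg adjustment over all 14860 genes at a threshold of 0.05. All groups shared a single estimate of each gene's spread. The fit was tested on simulated data with known changes. The members and gene lists were chosen with earlier results of these data known. Named are the members, up to 4 genes per list with the largest difference past the threshold, the 3 genes most correlated with each member, and Rad21 and Mad2l1 as somatic counterparts; detected-in-some genes of the lists, Oaz3, Tubg1, Syngr1, Tgm1, Ms4a1 and the 2 B cell genes were chosen after their values were seen. Precision is limited by 2 to 6 arrays a group. Replicate numbers did not pair the samples: deviations of same-numbered lymphomas correlated at -0.31 to 0.33. Alternatives covered scaling, array weights, low genes, other variance models, transcript cluster choice, the replicate block, leaving out arrays and the background cutoff.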

Additional observations from a re-analysis of the deposited data

Results flagged for a closer look

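In 16 groups of 6 lymphomas (8 genes in 2 genotypes), 5 single samples stood apart from the others of their group by Dixon's ratio of gap to range (critical value 0.625), where chance gives about 1 in 20 groups. The members were chosen on these values and 4 of the 5 are from 1 array, so the groups are not independent and the ratio is a description. In p53-246 lymphoma 6 this held for Mnd1, at 6.22 with the nearest other sample at 7.69. The same lymphoma stood apart for Dmc1 at 4.32 (nearest 3.93), for Rec8 at 4.58 (nearest 4.30) and for Tdrkh at 5.23 (nearest 4.28). That array is one of the 2 with compressed gene values, and its part in these 4 values was not tested. Rec8 also stood apart in p53-null lymphoma 1, at 4.39 with the nearest at 4.16, below the cutoff.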

How the results depend on the processing

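No member reversed a called direction under the alternatives run, and none changed its call between genotypes in normal cells. For lymphoma against normal cells and for the genotype-by-cell-type difference, only the members' differences were kept under the alternatives, not their calls. Leaving out low genes removed 6 members and so covered only Mnd1 and Psmc3ip. Over 10 settings other than leaving out arrays, the lymphoma-normal difference of Mnd1 stayed between 4.63 and 4.80 and that of Psmc3ip between 1.53 and 1.83. The uncalled Sycp3 difference was 0.06 under quantile normalization, and Hormad1 was -0.05 without the 2 compressed arrays. Genes called in lymphoma against normal cells numbered 5685, 4426 with low genes left out, 7880 over the whole table and 4643 to 7139 leaving out 1 array. Meiotic genes called numbered 8, but 5 with low genes left out, since fewer were tested, 12 without the 2 compressed arrays and 8 to 12 leaving out 1 array (12 without p53-246 lymphoma 6). piRNA genes called numbered 1, but 2 with array weights, 0 with low genes left out, and 1 to 4 leaving out 1 array (4 without p53-246 lymphoma 6, 3 without p53-null normal sample 2).

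Genotype-by-cell-type differences of members moved without the 2 compressed arrays, for Mnd1 to 0.30 against -0.39, for Dmc1 to -0.11 against 0.09 and for Rec8 to 0.042 against 0.40; leaving out 1 array gave Rec8 0.10 to 0.70. Genes differing between genotypes in normal cells numbered 0, and 0 to 532 leaving out 1 array (532 without p53-null normal sample 2, 4 without p53-246 normal sample 1), and for the interaction 0 to 473 (473 and 2 without the same samples). A lone sample was then assumed to vary like the other groups, and the cause was not tested. With background at the 99th percentile, chosen after seeing the data, Hormad1 was detected in 1 lymphoma, Sycp3 in 0, Tdrkh in 3, Mnd1 in 11 and Psmc3ip in 11 and in 0 normal samples; at the 90th, Tdrkh was detected in 5 lymphomas and Psmc3ip in 4 normal samples.

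The replicate numbers do not pair the samples. A replicate block gave 4475 called genes in lymphoma against normal cells and a Hormad1 difference of 0.86 against 0.14. It called no gene between genotypes in lymphomas or in normal cells. Calls of members in lymphoma against normal cells were not kept under it.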

Other observations

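Lists of genes that act on germ line silencing moved in both directions in lymphomas. Of 11 genes of the E2F6 and MGA complex, which represses germ line genes in somatic cells, 4 were higher and 1 lower in the limma fit, with a median log2 difference of 0.11. The histone methyltransferase Setdb1 differed by 1.09 (SE 0.14, adjusted p = 5.74e-06), Pcgf6 by 1.04 (SE 0.15, adjusted p = 2.78e-05), E2f6 by 0.90 (SE 0.20, adjusted p = 0.00125) and Atf7ip, the partner of Setdb1, by -1.01 (SE 0.15, adjusted p = 3.51e-05).

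Of 11 genes of DNA methylation, its cofactors and its removal, 4 were higher and 2 lower. Uhrf1, which brings the maintenance methyltransferase to new DNA, differed by 3.69 (SE 0.21, adjusted p = 2.46e-10) and Dnmt1 by 1.51 (SE 0.11, adjusted p = 6.87e-09). The dioxygenase Tet2 differed by -1.17 (SE 0.26, adjusted p = 0.00141) and Zbtb38, a methyl-DNA reader, by -1.13 (SE 0.18, adjusted p = 8.32e-05).

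Germ line genes known to be silenced by promoter methylation mostly lay below background. Of 12 such genes other than the members 0 passed the limma threshold in either direction, 0 had an unadjusted p under 0.05, and 11 were below background on all 16 arrays. Of 11 spermatid genes 0 were higher and 1 was lower, Spaca1 at -0.78 (SE 0.10, adjusted p = 8.27e-06), a sperm acrosome membrane protein. The spermatid count was 4 without p53-null normal sample 2 and 2 without p53-246 lymphoma 6, and that of the methylation-silenced genes was 1 when each of these arrays was left out.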
